A study of Mus musculus with 6 samples.

Results

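The leukocyte integrins are the adhesion receptors that white blood cells use to stop on vessel walls, cross them and hold on to other cells. The 8 genes described here were chosen by name as the subunits of the β2 group (Itgb2 with its α partners Itgal, Itgam, Itgax and Itgad) and of the α4/β7 group (Itga4, Itgb7 and Itgae). They are 8 of the 49568 gene rows in a table of read counts from whole lung RNA, and all 8 passed the filter on low counts that left 19199 genes to test. The lungs came from 3 TNF-Tg mice, which overexpress one transgenic copy of the human TNF gene and develop erosive arthritis with inflammation around lung vessels, and from 3 wild-type (WT) littermates. All 6 were C57BL/6 females aged 4 months. They are called TNF+ and TNF- lungs below, and each sample was the lung of a separate mouse. The transgene is not limited to the lung, so the comparison is of whole animals.

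The libraries held 25396923 to 30049463 counts in TNF+ lungs and 31400978 to 32529408 in TNF- lungs, so 3 counts corresponded to 0.0922 to 0.118 CPM, counts scaled to a common library total. Several libraries stood apart before any integrin was considered. The row Gm42418, which overlaps ribosomal RNA sequence, took 5.22% of the counts of TNF+ replicate 1 and 0.0774 to 0.274% elsewhere. TNF- replicate 1 held 56570 counts of Krt4 and 45433 of Krt13, keratins of squamous epithelium, while no other lung had more than 8 of either, and its summed skeletal muscle markers were 1911 CPM against 14.27 to 48.07 in the others. The row of mouse Tnf had 106, 213 and 405 counts in TNF+ lungs and 16, 14 and 35 in TNF- lungs. The transgene is human, and how its reads were assigned was not tested. Hemoglobin genes, a sign of red cell RNA, took 0.73 to 1.18% of the counts in TNF+ and 3.49 to 5.87% in TNF- lungs, and their part in the differences below, platelet and neutrophil genes included, was not tested.

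An integrin is a pair of 1 α and 1 β subunit, and neither reaches the cell surface in a working form alone. The β2 subunit (CD18) pairs with αL (CD11a, giving LFA-1), αM (CD11b, giving Mac-1), αX (CD11c, giving p150,95) and αD (CD11d). LFA-1 is carried by nearly all leukocytes and binds intercellular adhesion molecules (ICAMs), Mac-1 marks neutrophils, monocytes and many macrophages and binds complement fragments and fibrinogen, and CD11c is found on dendritic cells and, in the lung, on alveolar macrophages. The α4 subunit pairs with β1 (Itgb1) to give VLA-4, which binds VCAM-1, or with β7 to give the gut-homing receptor α4β7, which binds MAdCAM-1. The αE subunit (CD103) pairs with β7 and binds E-cadherin on epithelium. It is carried by T cells lodged in epithelium and by a class of dendritic cells.

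Of the 8 integrin genes, 7 passed the test between genotypes, 6 higher and 1 lower in TNF+ lungs, and Itgb7 did not. Genotypes were compared by the quasi-likelihood method of edgeR, and p was adjusted after Benjamini and Hochberg over the 19199 genes. By the same rule 47.4% of all genes tested were called, made up of 24.0% higher and 23.4% lower in TNF+ lungs. The counts of the 3 TNF+ lungs and the 3 TNF- lungs did not overlap for the same 7 genes, a separation that 58.7% of all genes tested also showed. The median log2 fold change was 1.45 over the 8 genes and 0.03 over all genes tested. Without both lungs numbered 1 the test called 6 of the 8, Itgae being the gene lost. In whole lung RNA, more or fewer cells of a type and more or less RNA per cell cannot be told apart, and this holds for every value below.

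**Figure D1:**
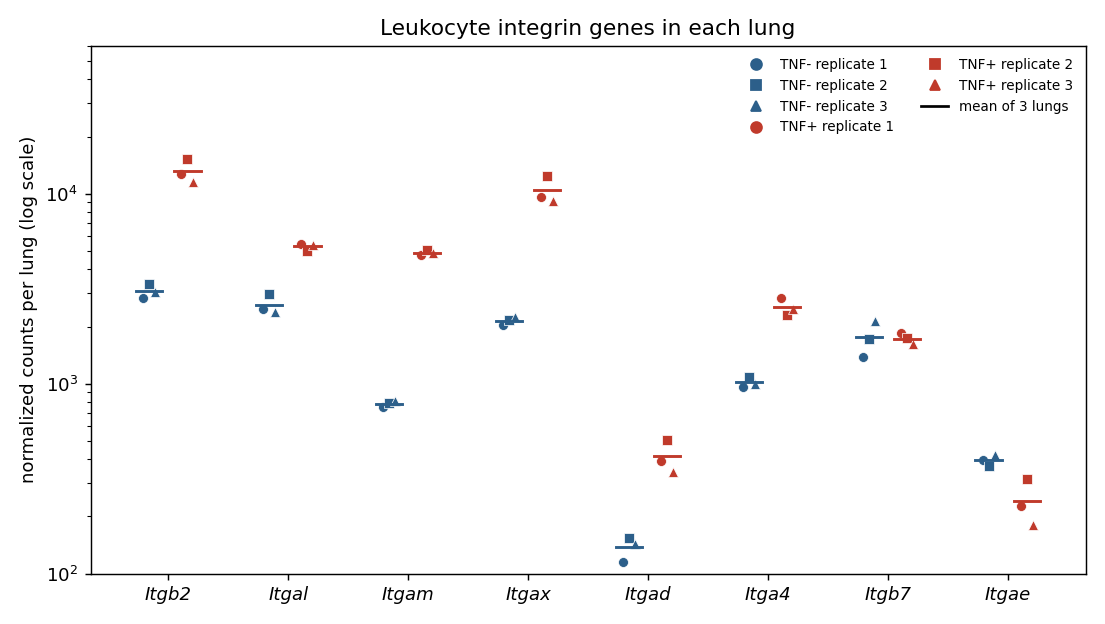
Normalized counts of the 8 leukocyte integrin genes in each lung, on a log axis, with TNF- lungs in blue and TNF+ lungs in red. Circles, squares and triangles are replicates 1, 2 and 3 and the line is the mean of 3; the groups lie apart for 7 genes and overlap for Itgb7, and Itgae is the gene whose TNF+ lungs lie below.

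Promoter sequences bear on genes that moved together, and RefSeq (GRCm38.p6) gave windows for 4 of the 8 genes, each from 250 bases before to 50 after the start of the gene. They are the windows of Itgam and Itgax, neighbours on chromosome 7 that rose most, and of Itga4 and Itgb7, whose products pair but whose counts parted. They are printed 5′ to 3′ on the strand of the gene, base 251 being the first of the gene in RefSeq (for Itgax and Itgb7 a few bases inside the GENCODE M21 gene positions given below), with matches to any of 4 short motifs in capitals.
Itgam, chr7:128062390-128062689, plus strand: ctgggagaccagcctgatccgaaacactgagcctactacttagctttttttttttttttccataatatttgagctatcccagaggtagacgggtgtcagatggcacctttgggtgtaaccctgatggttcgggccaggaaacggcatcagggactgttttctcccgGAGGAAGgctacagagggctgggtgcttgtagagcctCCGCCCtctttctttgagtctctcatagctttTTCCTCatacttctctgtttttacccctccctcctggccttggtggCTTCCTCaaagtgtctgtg
Itgax, chr7:128129300-128129599, plus strand: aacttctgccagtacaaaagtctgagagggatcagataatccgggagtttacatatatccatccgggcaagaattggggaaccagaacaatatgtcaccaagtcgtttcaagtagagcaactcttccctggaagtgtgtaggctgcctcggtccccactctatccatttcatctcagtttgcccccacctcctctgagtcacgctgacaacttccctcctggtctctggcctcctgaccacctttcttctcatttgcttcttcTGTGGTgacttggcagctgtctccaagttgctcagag
Itga4, chr2:79255176-79255475, plus strand: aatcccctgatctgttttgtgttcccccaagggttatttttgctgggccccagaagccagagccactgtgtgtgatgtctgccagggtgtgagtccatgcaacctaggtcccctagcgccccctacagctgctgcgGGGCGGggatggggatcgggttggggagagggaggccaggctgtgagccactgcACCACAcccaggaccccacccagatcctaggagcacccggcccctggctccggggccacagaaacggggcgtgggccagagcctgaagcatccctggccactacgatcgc
Itgb7, chr15:102231886-102232185, minus strand: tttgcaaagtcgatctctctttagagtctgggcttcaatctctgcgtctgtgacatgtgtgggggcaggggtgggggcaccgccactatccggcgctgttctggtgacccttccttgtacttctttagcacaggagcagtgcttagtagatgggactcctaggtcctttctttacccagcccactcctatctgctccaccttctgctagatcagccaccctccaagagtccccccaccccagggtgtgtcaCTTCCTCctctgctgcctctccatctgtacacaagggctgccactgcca

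The motifs were searched as exact letters on both strands. GAGGAAG, a purine-rich core of the kind bound by PU.1, a transcription factor of myeloid and B cells, is found in 13.6% of the 32851 RefSeq promoter windows. The related core TTCCTC, whose reverse complement lies inside GAGGAAG, is found in 28.3% of them. TGTGGT, the core bound by Runx factors, is found in 16.8%. GGGCGG, a GC box, is found in 35.7%. The Itgam window held GAGGAAG at bases 167 to 173 and its reverse complement at bases 282 to 288, a further TTCCTC at bases 236 to 241, and the reverse complement of GGGCGG at bases 204 to 209. In the Itgax window the letters of TGTGGT stood at bases 264 to 269, and no other motif of the 4 matched. In the Itga4 window GGGCGG stood at bases 137 to 142 and the reverse complement of TGTGGT at bases 191 to 196. The Itgb7 window held the reverse complement of GAGGAAG at bases 252 to 258. These matches describe the letters of the windows and are not evidence of binding.

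Itgb2 encodes the β2 chain shared by LFA-1, Mac-1, p150,95 and CD11d/CD18, and lies on chromosome 10 from 77530252 to 77565708, plus strand (mm10, GENCODE M21, as for all gene positions here). Its normalized counts were 12728, 15157 and 11575 in TNF+ replicates 1, 2 and 3 and 2840, 3344 and 3036 in the TNF- replicates. Every TNF+ lung thus held several times the count of any TNF- lung. The mean was 13154 ± 1829 (SD, n = 3) in TNF+ against 3073 ± 254 (SD, n = 3) in TNF-, and the log2 fold change was 2.10 (standard error, SE, 0.136, adjusted p = 1.82e-05), a 4.28-fold difference with a 95% interval of 3.44 to 5.32.

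Itgam, the αM chain of Mac-1, showed the largest rise of the 8. It lies on chromosome 7 from 128062640 to 128118491, plus strand. TNF+ lungs held 4755, 5055 and 4889 normalized counts and TNF- lungs 757, 787 and 806. Both groups were tight, with coefficients of variation of 3.07% and 3.16%. The log2 fold change was 2.64 (SE 0.0896, adjusted p = 2.72e-06), a rise of 6.25-fold with a 95% interval of 5.42 to 7.21, and Itgam was number 8 of all genes in order of p. In the GENCODE M21 annotation 64.3% of its 100-base windows are shared with Gm49368, a gene model that overlaps it on the same strand and was not analysed here. The count assigned to Itgam is uncertain to that extent in all 6 lungs.

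Itgax, the αX chain CD11c, lies next to Itgam from 128129547 to 128150657 on chromosome 7, plus strand. Its normalized counts were 9631, 12452 and 9189.7 in TNF+ lungs and 2048, 2156 and 2248 in TNF- lungs. The TNF- lungs were close to each other, and TNF+ replicate 2 was the highest of all. The mean rose from 2151 ± 100.3 to 10424 ± 1770.0 (SD, n = 3 in each group), a log2 fold change of 2.28 (SE 0.14, adjusted p = 1.47e-05) or 4.85-fold with a 95% interval of 3.87 to 6.06.

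Itgal, the αL chain of LFA-1, rose least among the β2 partners. It lies on chromosome 7 from 127296260 to 127335138, plus strand. TNF+ lungs had 5468, 5012.5 and 5388 normalized counts and TNF- lungs 2477, 2959 and 2384. The groups stood apart, by 2.03-fold, with a log2 fold change of 1.02 (SE 0.112, 95% interval 0.76 to 1.28, adjusted p = 0.000212).

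Itgad, the αD chain, was the lowest β2 partner in both genotypes. It follows Itgax on chromosome 7 from 128154376 to 128223816, plus strand. Normalized counts were 391.6, 507 and 345 in TNF+ lungs and 115, 153 and 144 in TNF- lungs. The highest TNF- lung stayed below the lowest TNF+ lung, and the rise was 3.01-fold with a 95% interval of 2.21 to 4.11 (log2 fold change 1.59, SE 0.194, adjusted p = 0.000368). Of its 100-base windows 7.10% are shared with other gene models, Itgax among them, and 3.05% of those of Itgax are shared with Itgad.

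The sizes of these rises were compared within each lung. In TNF+ lungs the log2 ratio of Itgam to Itgal was -0.11 ± 0.11 and in TNF- lungs -1.73 ± 0.174 (SD, n = 3 in each), so the balance between the genes of Mac-1 and LFA-1 moved by 1.62 on the log2 scale, or 3.07-fold, without overlap. Itgax moved against Itgal in the same direction, by 1.24 on the log2 scale (2.36-fold). Itgax moved less than Itgam, with a change of their log2 ratio of -0.38, and Itgad less than Itgax, with a change of -0.69. For all 8 ratios compared here, these 4 and 4 given later, the groups did not overlap. The exact two-sided permutation test gave p = 0.1 for each (0.1 after Benjamini-Hochberg adjustment over 8), the smallest value that 3 lungs against 3 can give. How often ratios of other gene pairs separate the groups is not given here.

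Levels of different genes were set side by side only as normalized counts per kb of exon. On this scale Itgb2 was the highest in both genotypes, at 4310 ± 599 per kb in TNF+ and 1007 ± 83.2 per kb in TNF- lungs (SD, n = 3 in each). In TNF+ lungs the order of mean levels per kb was Itgb2, Itgax, Itgam, Itgal, Itgb7, Itga4, Itgad and Itgae, and no neighbours in it overlapped. In TNF- lungs it was Itgb2, Itgb7, Itgax, Itgal, Itgam, Itgae, Itga4 and Itgad, where Itgax (426.4 to 468.1 per kb) and Itgal (362.9 to 450.4 per kb) overlapped. Itgam stood higher in the order in TNF+ lungs, at 975.2 ± 29.9 per kb against 155.9 ± 4.93 in TNF- lungs, and Itgae stood lower, at 52.59 ± 14.6 against 86.35 ± 5.93 per kb. The place of Itgam in both orders is uncertain, since much of its sequence is shared with Gm49368 and the counting rule is not given. Itgb7 was at 632.8 ± 138 per kb in TNF- and 624 ± 42.5 per kb in TNF+ lungs. It stood just below Itgb2 in TNF- lungs and below all β2 genes but Itgad in TNF+ lungs, with nearly the same mean in both. With the longest transcript as the length the order of Itgae and Itga4 in TNF- lungs could not be told, since their levels were 103 and 104 per kb, and Itgam and Itgal came closer in TNF+ lungs (1050 and 1010 per kb).

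The makeup of the β2 α partners changed as well. Taking the 4 α genes together per kb, Itgal made up 38.5, 41.3 and 35.5% in TNF- lungs and 21.5, 17.1 and 21.7% in TNF+ lungs. Itgam made up 15.4, 14.4 and 15.7% in TNF- lungs and 24.4, 22.5 and 25.7% in TNF+ lungs. Itgax made up 43.5, 41.2 and 45.7% in TNF- lungs and 51.8, 57.9 and 50.6% in TNF+ lungs, the largest share in every lung but TNF- replicate 2, where Itgal was level with it. The share of Itgal was thus smaller and those of Itgam and Itgax larger in TNF+ lungs, with no overlap between genotypes. Itgad made up 2.94 ± 0.3% in TNF- and 2.26 ± 0.25% in TNF+ lungs, lower in every TNF+ lung. The sum of the 4 α genes over Itgb2, both per kb, was 1.03 ± 0.029 in TNF- and 0.942 ± 0.05 in TNF+ lungs (SD, n = 3), and the groups overlapped. This ratio depends on the gene lengths used, and with the longest transcripts it was 1.19 and 1.07. These shares are a description with no test. All of them depend on the level of Itgam, which is uncertain because of its overlap with Gm49368.

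**Figure D2:**
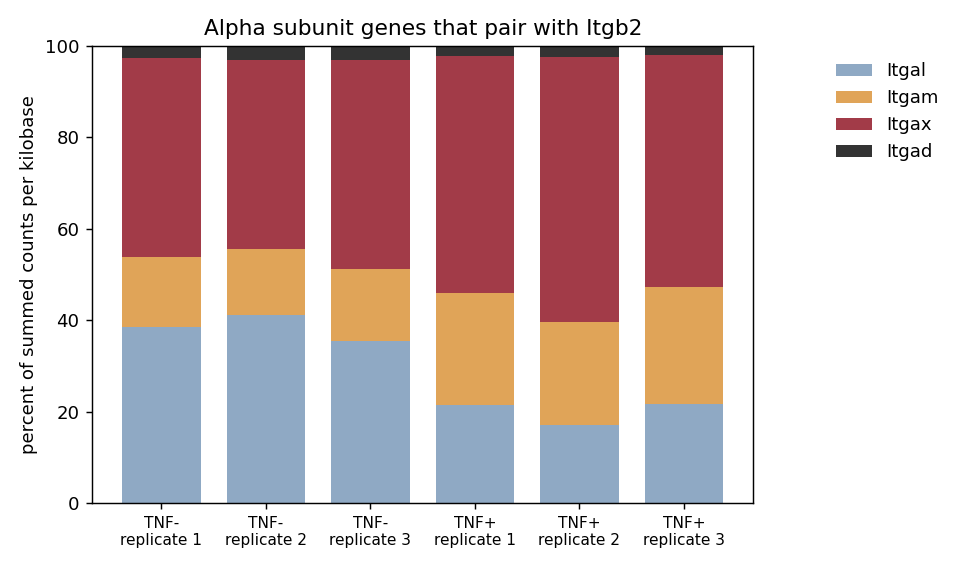
Share of each β2 α partner gene in the sum of Itgal, Itgam, Itgax and Itgad per kb of exon, in percent, as 1 stacked bar per lung from 0 to 100%. Itgal falls from 35.5 to 41.3% in TNF- lungs to 17.1 to 21.7% in TNF+ lungs, while Itgam and Itgax widen.

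Itga4, the α4 chain of VLA-4 and α4β7, rose in TNF+ lungs. It lies on chromosome 2 from 79255426 to 79333123, plus strand, and 6.56% of its 100-base windows are shared with Cerkl, which overlaps it on the opposite strand. Normalized counts were 2810, 2299 and 2466 in TNF+ lungs and 965, 1089 and 999.7 in TNF- lungs. The lowest TNF+ lung lay well above the highest TNF- lung. The rise was 2.48-fold with a 95% interval of 2.10 to 2.93 (log2 fold change 1.31, SE 0.104, adjusted p = 4.39e-05).

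Itgb7, the β chain that pairs with α4 and αE, did not pass the test. It lies on chromosome 15 from 102215995 to 102231944, minus strand. TNF+ lungs held 1845, 1731 and 1609.5 normalized counts and TNF- lungs 1386, 1725 and 2148, so that the TNF+ lungs fell inside the range of the TNF- lungs. The log2 fold change was -0.02 (adjusted p = 0.923), and its 95% interval of -0.37 to 0.33 covers a ratio from 0.772 to 1.26. The spread was wider among TNF- lungs (coefficient of variation 21.8%) than among TNF+ lungs (6.80%). Summed T cell markers in TNF- replicates 1, 2 and 3 were 76.64, 89.33 and 136.3 CPM and summed B cell markers 161.5, 206 and 277.1 CPM, in the same order as Itgb7. Pan-leukocyte, alveolar macrophage and plasma cell sums had this order too. In TNF+ replicates 1, 2 and 3 the T cell sums of 544.5, 574.2 and 409.9 CPM and the B cell sums of 352, 362.6 and 329.2 CPM did not follow Itgb7, while pan-leukocyte sums of 2614, 2525 and 2257 CPM and plasma cell sums of 4532, 3723 and 2232 CPM did, as did interstitial macrophage and monocyte sums of 3051, 2862 and 2482 CPM. The part of these cells in its spread was not tested.

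Itgae, the αE chain CD103, was the 1 gene of the 8 that fell. It lies on chromosome 11 from 73090583 to 73147446, plus strand. TNF+ lungs had 228, 313 and 181 normalized counts against 399, 367 and 421 in TNF- lungs. The groups did not overlap, but the gap between TNF+ replicate 2 and TNF- replicate 2 was narrow. The mean was 1.64-fold lower in TNF+ lungs, with a log2 fold change of -0.72 (SE 0.202, 95% interval -1.18 to -0.25, adjusted p = 0.0199). The call lay near the threshold. Without TNF+ replicate 1 the log2 fold change was again -0.72 but the adjusted p was 0.0511, and over 15 alternatives the adjusted p ranged from 0.00177 to 0.0823.

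Within each lung the α4 and αE genes moved apart from their shared β7 partner. The log2 ratio of Itga4 to Itgb7 was 0.54 in TNF+ and -0.76 in TNF- lungs, a change of 1.30 or 2.47-fold. That of Itga4 to Itgb1, the other β partner of α4, changed by 1.42 or 2.69-fold, Itgb1 itself having a log2 fold change of -0.12 (adjusted p = 0.508). The log2 ratio of Itgae to Itgb7 changed by -0.75 and that of Itgb7 to Itgb2 by -2.09, so that Itgb7 relative to Itgb2 was 4.26-fold lower in TNF+ lungs. Like the ratios among β2 partners, these 4 did not overlap between genotypes, and the exact permutation test gave p = 0.1 for each.

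The integrins were next set against Ptprc (CD45), a surface phosphatase carried by nearly all leukocytes. Ptprc had 6888, 5676 and 6812 normalized counts in TNF+ lungs and 2203, 2738 and 2241 in TNF- lungs, and its log2 fold change was 1.43 (adjusted p = 8.14e-05). Relative to Ptprc, Itgam stood 1.21 higher in TNF+ lungs on the log2 scale, Itgax 0.83 higher and Itgb2 0.66 higher. Itgal had a difference of -0.41, Itgb7 of -1.43 and Itgae of -2.18. These 6 genes did not overlap between genotypes relative to Ptprc, each with an exact two-sided permutation p of 0.1, again the smallest possible. The 58.7% of all genes tested that did not overlap is for normalized counts, and no such share is given relative to Ptprc. Itga4 (difference -0.13, exact permutation p = 0.3) and Itgad (0.14, exact permutation p = 0.8) overlapped. The value of Itgad rested on TNF+ replicate 2, and without that lung its difference was -0.11. Thus Itgal, which rose per library, was lower per Ptprc count, and the 3 genes Itgam, Itgax and Itgb2 were higher on both scales.

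**Figure D3:**
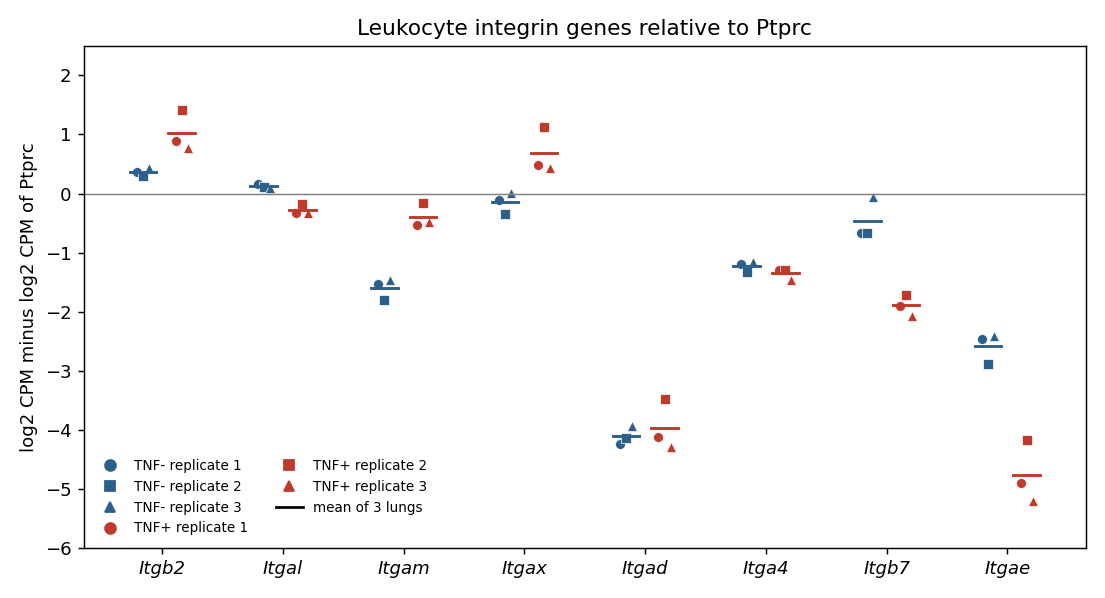
Log2 ratio of each leukocyte integrin gene to Ptprc in each lung, TNF- in blue and TNF+ in red, with circles, squares and triangles for replicates 1, 2 and 3 and a line at the mean of 3. Itgam, Itgax and Itgb2 lie higher in TNF+ lungs, Itgal, Itgb7 and Itgae lie lower, and Itga4 and Itgad overlap.

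Marker RNA of several leukocyte types differed between genotypes, and its part in the integrin values was not tested. The counts of markers stand beside 24.0% higher and 23.4% lower over all genes tested. Summed pan-leukocyte markers were 2257 to 2614 CPM in TNF+ and 797.9 to 1020 CPM in TNF- lungs, and all 6 rose. Interstitial macrophage and monocyte markers summed to 2482 to 3051 CPM against 391.2 to 403.7 CPM, with 9 of 10 higher. Of 9 alveolar macrophage markers 4 rose and 4 fell. Their sum of 2257 to 3734 CPM against 386.9 to 474.6 CPM was mostly Marco, a scavenger receptor that rose by 7.10 on the log2 scale, and without it the sums were 576.7 to 658.5 and 378.3 to 445.3 CPM. Among those that fell was Siglecf (log2 fold change -1.27), which marks alveolar macrophages and eosinophils. TNF+ replicate 2 had 95434 normalized counts of Marco, where replicates 1 and 3 had 58276 and 49542, and by normalized counts Itgam, Itgax, Itgb2, Itgad and Itgae were also highest among TNF+ lungs in replicate 2.

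Lymphocyte and granulocyte lists moved in different ways. Their counts stand beside 24.0% higher and 23.4% lower over all genes tested, and lists this short cannot be told from those shares where they lie near them. Of 10 T cell markers 9 rose and none fell, and their sum was 409.9 to 574.2 CPM in TNF+ against 76.64 to 136.3 CPM in TNF- lungs (142.5 to 166.8 against 67.41 to 117.9 CPM without Cd4, the largest). Of 8 B cell markers 4 rose (329.2 to 362.6 against 161.5 to 277.1 CPM), and of 6 plasma cell markers 5 rose (2232 to 4532 against 379.1 to 555.5 CPM, and 430.4 to 688.2 against 353.2 to 381.1 CPM without Jchain, the largest). Of 8 natural killer cell markers 2 rose and 4 fell, with sums of 19.81 to 23.46 CPM in TNF+ and 39.57 to 53.11 CPM in TNF- lungs. Of 10 neutrophil markers 2 rose and 6 fell. Their sum was 543.2 to 690.1 CPM in TNF+ and 128.2 to 204.5 CPM in TNF- lungs, and without Mmp9, the largest, it turned to 66.51 to 103.8 CPM in TNF+ and 112.3 to 185 CPM in TNF- lungs. Dendritic cell markers summed to 117.1 to 131.6 CPM against 97.67 to 112.2 CPM, with 4 of 10 higher and 2 lower. Of the 5 mast cell, basophil and eosinophil markers tested 1 rose and 3 fell. The sums over all 9 listed, untested ones included, were 18.99 to 39.31 CPM in TNF+ and 10.55 to 11.29 CPM in TNF- lungs, and without Prg2, the largest, they turned to 2.225 to 4.841 CPM in TNF+ and 8.497 to 10.78 CPM in TNF- lungs. Of 10 markers of lung epithelium and endothelium 8 fell and 2 did not pass. The sum over all 10 was 39250 to 45390 CPM in TNF- and 20420 to 26070 CPM in TNF+ lungs. Without Sftpc, the largest, which did not pass, it was 22230 to 31100 CPM in TNF- and 10920 to 13460 CPM in TNF+ lungs. No list had a marker at 0 in all 6 lungs.

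The other integrin subunits, which form the collagen, laminin and fibronectin receptors of epithelium, muscle, platelets and connective tissue, were more often lower than higher, beside 24.0% higher and 23.4% lower over all genes tested. Of 12 other α subunits 1 was higher, 6 were lower and 5 did not pass, and their median log2 fold change was -0.54. Of 6 other β subunits 1 was higher, 3 were lower and 2 did not pass, with a median of -0.37. Without both lungs numbered 1 the test called 5 of the α and 3 of the β subunits. The largest fall was in Itga2b (log2 fold change -3.09, adjusted p = 2.89e-05), the platelet and megakaryocyte chain αIIb. Itga3, a laminin receptor chain of epithelium, fell by 1.87 on the log2 scale (adjusted p = 7.87e-06), Itga8 by 1.78 and Itga10 by 1.20. Itga9 (-0.95) and Itga1 (-0.72, adjusted p = 0.0281) were also lower, and the lungs of both genotypes overlapped for Itga1. The single α subunit that rose was Itga2, a collagen receptor chain (1.09, adjusted p = 0.00761). Itga5 (0.07), Itga6 (-0.36), Itga7 (-0.26), Itga11 (-0.22) and Itgav (0.20) did not pass.

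Among the β subunits Itgb3 (-0.90), Itgb4 (-0.89) and Itgb6 (-0.61) fell. Itgb8, a TGFβ-activating chain, rose from low counts of 22, 21 and 10 in TNF- lungs to 32, 38 and 48 in TNF+ lungs (1.34 on the log2 scale, adjusted p = 0.0151). Itgb1 and Itgb5 (-0.06) did not pass. Itgb2l, a gene related in sequence to Itgb2 and named here after its values were seen, went the other way from Itgb2, with 4, 3 and 3 counts in TNF+ and 17, 16 and 23 in TNF- lungs (a log2 change of -2.22, adjusted p = 0.00324).

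**Figure D4:**
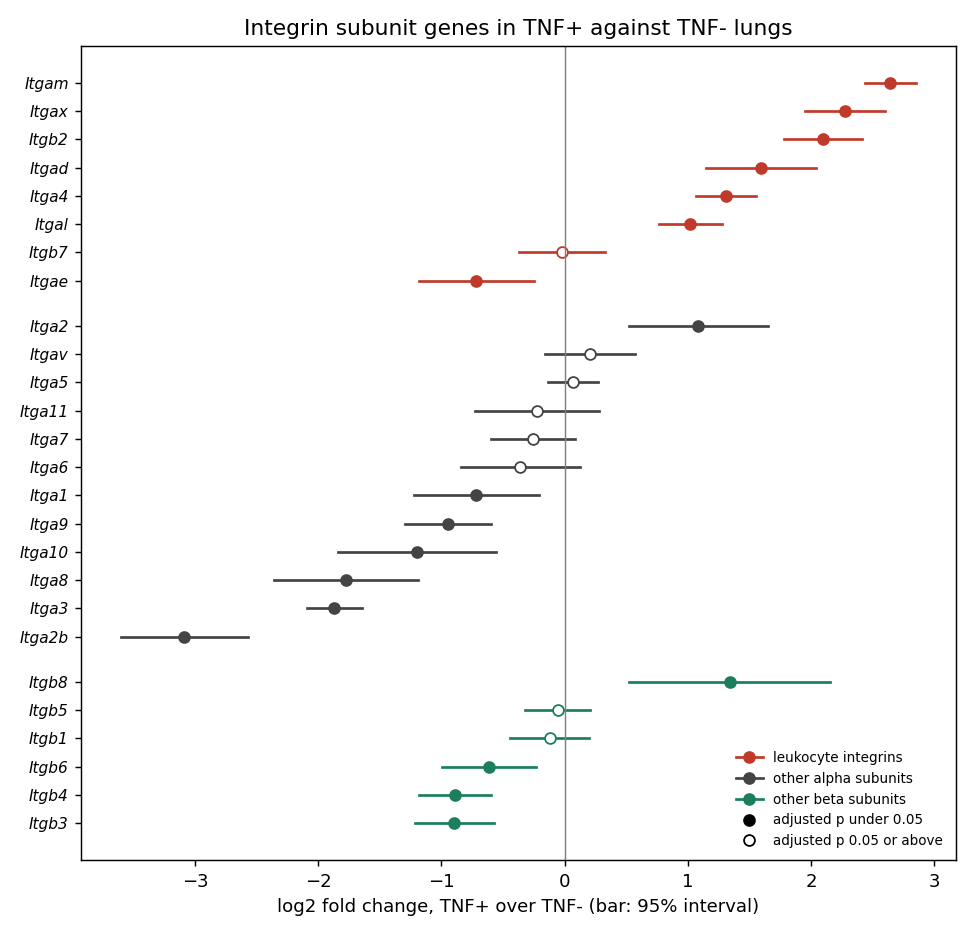
Log2 fold change (TNF+ minus TNF-) of the leukocyte integrin genes and the listed other α and β subunits, with 95% intervals, filled where the adjusted p was under 0.05. Itgb2l is not drawn. The β2 group lies between 1.02 and 2.64, while the other α subunits reach down to -3.09 for Itga2b.

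The ligands of the leukocyte integrins, carried by endothelium, epithelium and plasma, moved in both directions. The shares that rose and fell were not far from those over all genes tested (24.0% higher, 23.4% lower). Of the 20 ligand genes that had a row among the counts all but Fgb were tested, and of these 6 were higher, 5 lower and 8 did not pass, and the median log2 fold change was 0.11 (10 called without both lungs numbered 1). Madcam1, the MAdCAM-1 ligand of α4β7 on gut venules, had 115, 324 and 231 counts in TNF+ lungs and 0, 0 and 0 in TNF- lungs. It was at least 83.8-fold higher against the 3 counts per library taken as the limit of a count of 0. Vcam1, the ligand of α4β1 on inflamed endothelium, had 5368, 4772 and 4804 normalized counts in TNF+ and 1556, 1604 and 1411 in TNF- lungs, a log2 fold change of 1.71 (adjusted p = 1.27e-05). Madcam1 and Vcam1 were thus higher, as Itga4 was, while Itgb7, the other chain of α4β7, did not pass. Jam2, another endothelial ligand of α4β1, did not pass either (-0.10, adjusted p = 0.522).

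The ICAM ligands of LFA-1 showed another pattern. Icam1 had 11537, 11186 and 12026 normalized counts in TNF+ and 13348, 12681 and 12695 in TNF- lungs, with a log2 fold change of -0.16 (adjusted p = 0.235), although the groups did not overlap. Icam2, the constitutive ligand of resting endothelium, fell from 4044 ± 289 to 1273 ± 160 (SD, n = 3 in each), a log2 fold change of -1.67 (adjusted p = 2.77e-05). Icam5 (-0.92, adjusted p = 0.0211) was lower, and Icam4 (-0.67, adjusted p = 0.174) did not pass. The junctional molecules gave mixed signs, with Jam3 higher (0.97) and F11r lower (-0.60).

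Among the complement and fibrinogen ligands of Mac-1 and p150,95, C3, Fga and Fgg rose, while Fgb, with at most 2 counts in any lung, was not tested. C3, the source of iC3b, had a log2 fold change of 2.36 (adjusted p = 9.76e-05), Fga one of 2.29 (adjusted p = 0.00161) and Fgg one of 2.09 (adjusted p = 0.000339). Fga was low, with 25, 66 and 63 counts in TNF+ and 15, 9 and 11 in TNF- lungs. Ager, the receptor for advanced glycation end products of alveolar type 1 cells and a Mac-1 ligand, fell by 1.40 on the log2 scale (adjusted p = 0.000205). Cdh1, the E-cadherin bound by αEβ7, had 3456, 2982 and 3144 normalized counts in TNF+ and 9825, 9102 and 8407 in TNF- lungs (a log2 change of -1.51, adjusted p = 3.04e-05), so αE and its epithelial ligand were both lower. The others that did not pass were Fn1 (0.11, adjusted p = 0.725), Spp1 (-0.14, adjusted p = 0.548), Thy1 (0.40, adjusted p = 0.112), Fcer2a (0.50, adjusted p = 0.141) and Emilin1 (0.19, adjusted p = 0.228).

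**Figure D5:**
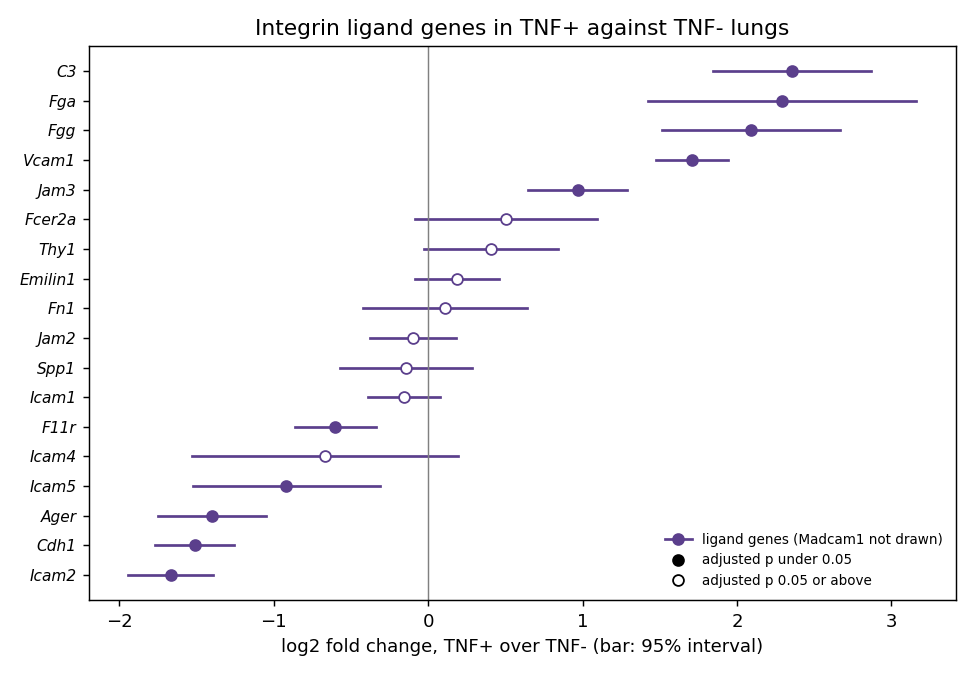
Log2 fold change (TNF+ minus TNF-) of the ligand genes of the leukocyte integrins with 95% intervals, filled where the adjusted p was under 0.05. C3, Fga, Fgg, Vcam1 and Jam3 lie above 0 and Icam2, Cdh1, Ager, Icam5 and F11r below; Madcam1, at 0 counts in every TNF- lung, is not drawn.

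Genes that activate integrins from inside the cell or carry their signals were more often higher than lower. Over all genes tested 24.0% were higher and 23.4% lower, and the share of this list that fell was near the latter. Of 36 tested 20 rose, 8 fell and 8 did not pass, and their median log2 fold change was 0.53 (24 called without both lungs numbered 1). The largest rises were in the adaptor genes Tyrobp (2.85), Fcer1g (2.59) and Fyb (2.32) and in Fgr (2.79), a Src family kinase of myeloid cells. The largest falls were in Tln2 (-2.30), a talin of muscle and other tissues, Rasgrp2 (-1.86), the Rap1 exchange factor of platelets and leukocytes, Fermt1 (-1.64), the epithelial kindlin, and Vcl (-1.50), vinculin. Among other genes of this list, named after their values were seen, Fermt3, the kindlin of blood cells, rose by 1.36 on the log2 scale, and Fermt2, the kindlin of most other cells, fell by 0.73 on the log2 scale. Tln1, the talin that leukocyte integrins use, fell by 0.56 on the log2 scale (adjusted p = 0.00635).

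Of 15 other adhesion and surface receptors of leukocytes 9 rose, 2 fell and 4 did not pass. Among all genes tested 24.0% were higher and 23.4% lower. The median log2 fold change of the 15 was 1.01 (10 called without both lungs numbered 1). Sirpa, the CD47 receptor of myeloid cells, rose by 2.47, Cd48 by 2.36, Cx3cr1, the fractalkine receptor, by 2.33 and Cd53 by 2.07 on the log2 scale. Pecam1, the junction molecule of endothelium that leukocytes also carry, had a log2 fold change of -0.56 (adjusted p = 0.00713).

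The genes whose pattern over the 6 lungs lay nearest to each integrin were found by the root mean square (RMS) difference of centred log2 CPM, among the 15289 tested genes that averaged 1 or more on the log2 CPM scale. For Itgam they were Enpp2 (RMS 0.0522), Csf2rb (0.0768) and Apobec1 (0.087). Those of Itgax were Gm9025 (0.0454), Gla (0.0794) and Tlr7 (0.0871), and those of Itgb2 were Nckap1l (0.0786), Slc15a3 (0.0826) and Naip2 (0.0945). Itgal had Sh3kbp1 (0.057) and 2010315B03Rik (0.0606) among its nearest, and Itgad had Blvra (0.0799), Ctsa (0.0842) and Gm7541 (0.09).

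In the α4/β7 group the nearest to Itga4 were Gpr35 (RMS 0.069), Rtn1 (0.0692) and Plcg2 (0.0811). Itgb7 had Fas (0.0364), Tnfsf13 (0.0509) and Nsmce1 (0.06), and Itgae had Phf24 (0.0863), St14 (0.0881) and Hlf (0.0891). Among the integrins themselves Itgax and Itgb2 lay closest (RMS 0.111), followed by Itgal and Itga4 (0.16), and Itgam and Itgae lay farthest apart (1.71). All 6 lungs enter each distance, so a gene can be near only where it also differs between genotypes by a like amount.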

How the data were processed

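RNA of whole lung was sequenced from 3 TNF-Tg and 3 WT mice (poly(A) selected, stranded kit, single reads of 100 bp). The authors deposited raw read counts per gene symbol for each lung. Per the labels and the submitters' processing notes, reads were trimmed with Trimmomatic 0.36, aligned with STAR 2.5.2b to GRCm38.p5 and counted with featureCounts. The annotation and the strand setting of the counting are not given in the sources used here, so shares of overlapping sequence were computed from GENCODE M21, and reads of overlapping genes cannot be told apart. From the counts, edgeR 4.0.16 (R 4.3.3; filterByExpr, TMM, quasi-likelihood test, genotype only) gave log2 fold changes as TNF+ minus TNF-, with Benjamini-Hochberg adjusted p called under 0.05 over 19199 genes. Normalized counts are counts scaled by TMM library size; log2 CPM used a prior count of 2. Values per kb used the union of exons. Ratios were tested by exact two-sided permutation. Chi-square per degree of freedom between replicates of a group was 58.8 to 154, so libraries of a group differed by more than counting error. Whether they came from separate RNA cannot be told from this value, and libraries of different genotypes were not compared in this way.

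The integrin genes and all lists were chosen with earlier results of these data known. Named were all 8 integrins, all ligands and other subunits, up to 4 rises and 4 falls per other list and 3 nearest genes per integrin; some named by this rule are not reported here. Alternatives were DESeq2 1.42.0, limma-voom (limma 3.58.1), other scalings and filters, a replicate block and leaving out lungs. Leaving out both lungs numbered 1, and the rows Gm42418, Krt4 and Krt13, was chosen after seeing the data. Replicate numbers mark different animals. Deviations of same-numbered lungs had a mean correlation of -0.13 across genes, against 0.07 for other pairs, so the numbers were not taken as pairs. Groups of 3 were not tested for outliers. Depth bounds only counting error.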

Additional observations from a re-analysis of the deposited data

How the results depend on the processing

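Over 15 alternatives Itgal, Itgam, Itgax, Itgad, Itgb2 and Itga4 stayed higher in TNF+ lungs and past the threshold, with log2 fold changes of 0.92 to 1.12, 2.60 to 2.66, 2.13 to 2.34, 1.42 to 1.69, 1.99 to 2.17 and 1.15 to 1.38. Itgae stayed lower (-0.95 to -0.56) and missed the threshold without TNF-Tg replicate 1 (adjusted p = 0.0511) and without both lungs numbered 1 (adjusted p = 0.0823), where the cause was not tested. Leaving out 1 lung moved Itgb7 between -0.19 and 0.15, the sign turning without WT replicate 3 and, at 0.01, without TNF-Tg replicate 3. Fn1 moved between -0.14 and 0.28, the sign turning without WT replicate 3, and Spp1 passed the threshold without that lung (-0.35, adjusted p = 0.0401). The difference of Itgad relative to Ptprc lay between -0.11 and 0.30, negative without TNF-Tg replicate 2. Of 136 alternatives for the levels relative to Ptprc and the ratios between integrins, the other 135 kept their direction. With the longest transcript as length, the share of Itgam was 22.2% in TNF+ and 13.6% in TNF- lungs, and the sum of α genes over Itgb2 was 1.07 and 1.19. Over all genes 9096 were called, 7686 with the replicate block and 6064 without both lungs numbered 1, a count 1.5 times smaller. The replicate block left 7 of the 8 integrins called and changed no direction among them. Depth limits genes at low counts such as Itgb8 and Itgb2l, each at under 50 counts in every lung.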
